A study of Homo sapiens with 6 samples.

Results

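The miRNA profile of A549 cells that carried only an empty plasmid was described from 3 small RNA libraries, out of 6 libraries in the series. The members were chosen by their labels: the libraries of cells transfected with pcDNA4 without an insert, a mammalian expression plasmid, delivered with a Lipofectamine reagent and harvested at 48 h. A549, a human line established from a lung adenocarcinoma and labelled epithelial, was kept in DMEM with fetal bovine serum and antibiotics. The other 3 libraries, from cells given the same plasmid with SMARCA4, a chromatin remodelling ATPase, were not used, so the values describe a control state that includes the transfection itself. All 3 libraries come from 1 line, and the design text calls them independent biological replicates. They are called replicates 1, 2 and 3 below, and all 787 mature miRNAs in the deposited table were considered.

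A miRNA is cut from a hairpin in a longer transcript, first in the nucleus by Drosha and then in the cytoplasm by Dicer. The short duplex that remains has a 5p and a 3p strand, named for the arm of the hairpin, and usually 1 of them is loaded into an Argonaute protein while the partner is degraded. The loaded strand finds messenger RNAs mainly through its seed, bases 2 to 8, so miRNAs with the same seed form a family with overlapping targets.

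The sequences of the most abundant miRNAs show which seeds made up the baseline of these cells. They are given 5′ to 3′ in order of abundance, from RefSeq with the GRCh38.p14 assembly, with the seed in capitals. They cover 18 of the 20 most abundant miRNAs. The others were miR-21-3p and miR-151a-3p.
miR-21-5p: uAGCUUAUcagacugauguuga
miR-192-5p: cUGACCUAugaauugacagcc
miR-27b-3p: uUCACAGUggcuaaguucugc
miR-22-3p: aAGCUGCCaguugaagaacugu
miR-30a-5p: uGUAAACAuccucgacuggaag
miR-10a-5p: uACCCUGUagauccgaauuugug
let-7a-5p: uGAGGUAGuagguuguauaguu
miR-182-5p: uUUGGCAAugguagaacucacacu
miR-92a-3p: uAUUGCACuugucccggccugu
miR-31-5p: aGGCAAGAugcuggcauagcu
miR-191-5p: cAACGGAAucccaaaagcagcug
let-7f-5p: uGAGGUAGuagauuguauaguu
miR-222-3p: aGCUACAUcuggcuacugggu
miR-92b-3p: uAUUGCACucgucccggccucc
miR-181a-5p: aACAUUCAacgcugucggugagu
let-7i-5p: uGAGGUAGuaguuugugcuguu
miR-125a-5p: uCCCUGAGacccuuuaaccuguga
miR-26a-5p: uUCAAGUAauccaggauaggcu

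The libraries held 881370, 933753 and 1079944 reads assigned to the listed miRNAs in replicates 1, 2 and 3, recovered from the deposited normalized values. Shares below are percentages of these totals, and a count of 0 allows up to 3 reads, or between 0.000278% and 0.000340% of a library. That limit covers counting error only, since the labels mention no molecular identifiers and amplified reads of 1 molecule cannot be told apart. The library kit ligates adapters to RNA ends with an efficiency that differs between miRNAs, so a share ranks reads, and its relation to molecules per cell was not tested. Fewer cells with a miRNA and less of it per cell cannot be told apart in these bulk samples.

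Replicate 2 stood apart from the other two. Over 362 miRNAs with a mean of at least 10 reads, the log2 levels of replicates 1 and 3 correlated with a Pearson r of 0.985, and those of replicate 2 with r = 0.960 and 0.961 to replicates 1 and 3, given as a description across miRNAs that are not independent. Among the 162 miRNAs with a mean of at least 100 reads, 2 (1.23%) differed by more than 2-fold between replicates 1 and 3, against 25 (15.4%) between 1 and 2 and 26 (16.05%) between 2 and 3. Values without replicate 2 are given for several of the results that change when it is left out.

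The baseline was dominated by few miRNAs. miR-21-5p, which represses the tumour suppressor PDCD4 and is abundant in most carcinomas, was first in every library. It made up 20.2% of reads in replicate 1, 27.7% in replicate 2 and 19.0% in replicate 3, a mean of 22.3% ± 4.75 (SD, n = 3). Replicate 2 was the high library, and without it the mean was 19.6%. miR-192-5p, a p53-responsive miRNA best known from gut and kidney epithelium, was second with 12.03%, 10.06% and 12.80% of reads (11.6% ± 1.41). miR-27b-3p, made from the miR-23b cluster and known to repress PPARG, ranked 3 with 11.1%, 8.35% and 9.30% (9.57% ± 1.38). These 3 miRNAs held the same ranks in all 3 libraries and together 43.5% ± 2.55 of reads.

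The next ranks were closer together. miR-22-3p had 6.28%, 5.693% and 5.601% of reads (5.86% ± 0.368), the tightest of the 5 most abundant. miR-30a-5p, of a family that restrains mesenchymal genes and autophagy, had 4.05%, 6.23% and 3.77% (4.68% ± 1.35). Its replicate 2 value lay above both others. miR-10a-5p, encoded among the HOXB genes, had 4.21%, 2.48% and 4.70% (3.80% ± 1.17), with replicate 2 below both others. Without replicate 2 the mean of miR-10a-5p (4.46%) lay above that of miR-30a-5p (3.91%). let-7a-5p, a repressor of RAS and HMGA2 messages, had 3.54%, 3.18% and 4.12% (3.61% ± 0.473). miR-182-5p, made together with miR-96 and miR-183 and known to repress FOXO factors, had 3.12%, 3.55% and 3.62% (3.43% ± 0.270). miR-182-5p thus showed little spread, and so did miR-92a-3p of the miR-17-92 cluster, with 2.76%, 2.56% and 2.77% (2.70% ± 0.122).

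All 4 miRNAs given as markers of these cells (miR-21-5p, miR-192-5p, miR-27b-3p and miR-182-5p) were among the 8 most abundant in each library. The markers were given for these same samples, so their ranks are a description and no check of cell identity. The order of neighbours below the first ranks was less fixed. Of the 20 pairs of neighbours from rank 1 to rank 21, 6 stood in the same order in all 3 libraries and 14 did not. The 3 steps from miR-21-5p down to miR-22-3p were among the 6, as were miR-182-5p above miR-92a-3p, let-7f-5p above miR-222-3p and miR-125a-5p above miR-26a-5p. miR-22-3p ranked above miR-30a-5p in 2 libraries and below it in replicate 2. The top 10 of the libraries shared 9 miRNAs and named 12 in all. miR-31-5p, a miRNA reported as oncogenic in lung tumours, ranked 12, 8 and 11, and miR-191-5p ranked 11, 17 and 10.

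**Figure D1:**
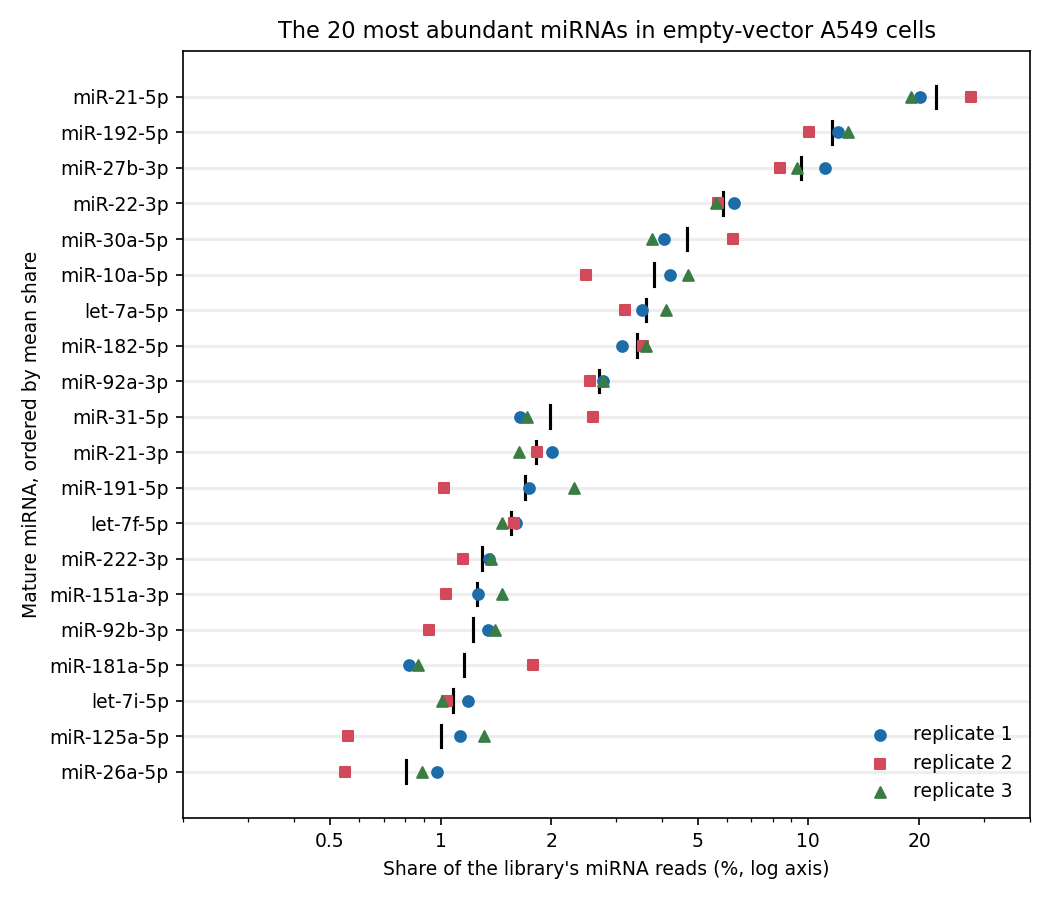
Share of each library's miRNA reads (%, log axis) for the 20 most abundant miRNAs, ordered by mean share, with 1 marker per replicate and a black bar at the mean. miR-21-5p lies between 19.0% and 27.7%, and replicate 2 is set off to the right for miR-30a-5p, miR-31-5p and miR-181a-5p and to the left for miR-10a-5p, miR-191-5p and miR-125a-5p.

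In each library most reads came from few miRNAs. The 10 most abundant miRNAs held 68.9%, 72.5% and 67.4% of reads in replicates 1, 2 and 3 (69.6% ± 2.61), and the top 20 held 82.4% ± 1.41. By mean share, 5 miRNAs made up 50% of reads, 34 made up 90% and 147 made up 99%. Within single libraries 33, 32 and 34 miRNAs made up 90%. A total of 19 miRNAs each held at least 1% of reads and 81.6% together, while 60 held at least 0.1%. The 625 miRNAs with a mean under 100 reads, most of the list, held 0.814% together.

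**Figure D2:**
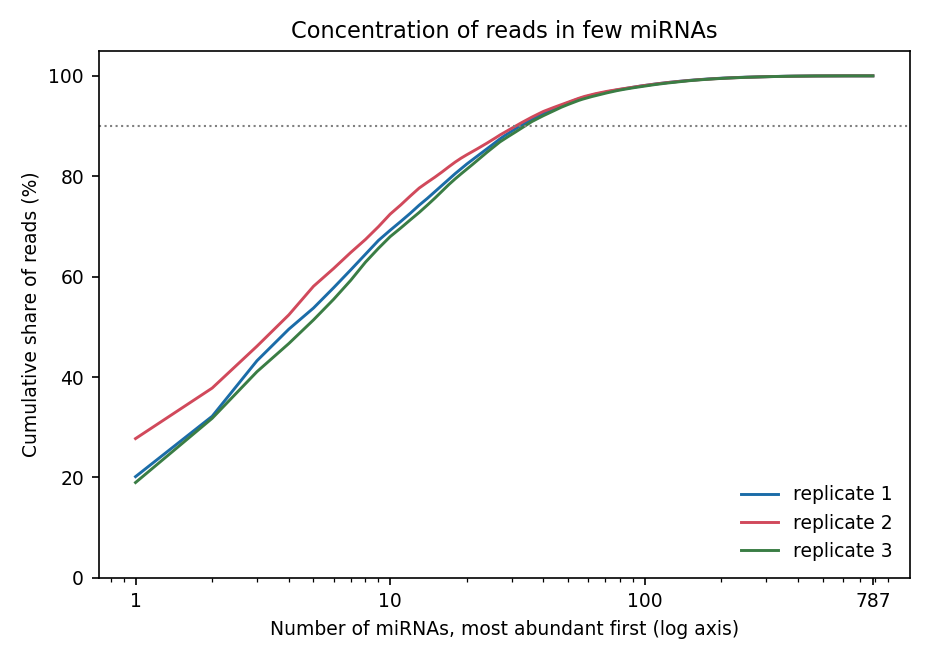
Cumulative share of reads (%) against the number of miRNAs taken, most abundant first in each library (log axis), with a dotted line at 90%. The 3 curves cross that line at 33, 32 and 34 miRNAs, and replicate 2 starts highest because miR-21-5p takes 27.7% of its reads.

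Detection reached well beyond these abundant miRNAs. At least 1 read was found for 602, 611 and 622 miRNAs in the 3 libraries, and 523 of 787 (66.5%) were found in all 3. Of the rest, 84 were found in 2 libraries, 98 in 1 and 82 in none. At least 10 reads in every library were reached by 309 miRNAs, 1000 reads by 54 and 10000 reads by 13. The median miRNA found in all 3 libraries had 25.3 reads on average, 8465 times fewer than miR-21-5p. miRNAs found in only 1 or 2 libraries had at most 9 reads in any library. The most abundant of them were miR-5699-5p with 0, 8 and 7 reads and miR-486-3p with 0, 3 and 9, followed by miR-433-3p, miR-99a-3p and miR-580-3p. No difference between libraries is read from such counts.

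Grouping by seed narrowed the profile further. Mature sequences were matched for 697 of the 787 names (88.6%), which held 93.5% of reads and 590 different seeds. Of the matched reads, 4 seeds made up 50% and 16 made up 90%. Among matched names, the 5 largest seed families were led by miR-21-5p, miR-192-5p, miR-27b-3p, let-7a-5p and miR-22-3p. They held 57.1% ± 2.06 of all reads. miR-30d-5p (0.730%) and miR-30b-5p (0.0892%) had no matched sequence and were left out of the family of miR-30a-5p (5.49%). The place of miR-22-3p (5.86%) among the 5 therefore depends on the matching. In the families led by miR-21-5p and miR-192-5p the lead miRNA supplied nearly all reads. miR-215-5p, which shares the seed of miR-192-5p, had far fewer reads (0.00726% of the total) beside 106008, 93977 and 138184 of miR-192-5p. In the family of miR-27, miR-27b-3p gave 95.9% of the reads and miR-27a-3p, from a paralogous cluster, the remainder, with 4250, 2727 and 4784 reads.

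Among the 5 largest families of matched names, let-7 was the one spread over several members. Its 9 members share the seed GAGGUAG and were all found in all 3 libraries, at 7.50%, 6.83% and 7.78% of reads together (7.37% ± 0.489). They are shown because several differ from let-7a-5p at few positions, which matters for how reads were assigned.
let-7e-5p: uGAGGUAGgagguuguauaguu
let-7g-5p: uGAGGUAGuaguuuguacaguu
miR-98-5p: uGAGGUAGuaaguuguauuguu
let-7b-5p: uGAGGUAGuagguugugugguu
let-7d-5p: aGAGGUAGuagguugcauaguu
let-7c-5p: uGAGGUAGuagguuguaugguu
let-7a-5p gave 49.0% of the family, followed by let-7f-5p with 1.55% ± 0.0708 of all reads and let-7i-5p with 1.08% ± 0.0946. let-7c-5p was last, with 267, 302 and 367 reads. By sequence, let-7f-5p, let-7e-5p and let-7c-5p each differ from let-7a-5p at 1 of 22 positions, let-7g-5p, miR-98-5p, let-7b-5p and let-7d-5p at 2, and let-7i-5p at 4. The sources used here do not say how reads that fit more than 1 member were assigned, so the split within let-7 is uncertain. The same holds for miR-27a-3p and miR-27b-3p, which differ at 1 of 21 positions.
miR-27a-3p: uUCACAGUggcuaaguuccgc

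The family of miR-92a-3p, whose seed AUUGCAC is shared by miR-92b-3p, miR-25-3p, miR-32-5p and miR-363-3p, held 4.50%, 3.86% and 4.60% of reads (4.32% ± 0.400). miR-92a-3p gave 62.4% of them, and miR-92b-3p and miR-25-3p come from other loci. miR-92b-3p differs from miR-92a-3p at 3 of 22 positions and had 1.23% ± 0.262 of all reads. Members of the miR-30 list, 5p and 3p strands together, summed to 5.84%, 8.21% and 5.41% of reads (6.49% ± 1.51), of which miR-30a-5p was 72.2%. In replicate 2 this list was higher than in either other library.

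Sequence composition differed between the catalogue and the reads. Of 466 miRNAs found in all 3 libraries and matched to a sequence, 181 (38.8%) begin with U, a base that Argonaute2 is known to accommodate well at the first position. Weighted by the reads of all 697 matched names, U-initial miRNAs made up 67.0%, 68.8% and 65.2% (67.0% ± 1.78). Read shares by first base and by length are percentages of these matched reads. miR-21-5p alone, which begins with U, accounts for 22.3% of all reads. G-initial miRNAs were 41 (8.80%) of those found and 0.293% ± 0.0222 of reads, and none of the 50 matched miRNAs with a mean of at least 1000 reads begins with G. A length of 22 bases was the most common, for 57.5% of those found and 55.9% ± 3.61 of reads. Ligation efficiency also depends on end bases, and its part in these shares was not tested.

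Most hairpins used 1 arm far more than the other. Names were paired into 212 hairpins with both arms listed, and 180 with a summed mean of at least 10 normalized units were tested for an arm ratio different from 1. By limma on log2((5p + 1)/(3p + 1)), 155 hairpins (86.1%) passed an adjusted p of 0.05, of which 79 (43.9%) had the 5p arm higher and 76 (42.2%) the 3p arm. The dominant arm held a median of 93.9% of a hairpin's reads, over 90% in 111 hairpins and over 99% in 42. The same arm was higher in all 3 libraries for 164 hairpins. Among the 64 hairpins with a summed mean of at least 1000 units 63 passed, 39 towards 5p and 24 towards 3p. Minor arms together held 3.74% of reads.

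Several of the most abundant hairpins were close to single-armed. miR-192-3p had 5, 8 and 5 reads beside the reads of miR-192-5p given above, and miR-182-3p had 1, 3 and 2 beside 27508, 33180 and 39075 of miR-182-5p. For hairpins with a minor arm of at least 10 reads on average, the ratios towards 5p were largest for miR-10a, miR-191, let-7a, let-7f, miR-181b and let-7e. miR-10a-5p had 37115, 23198 and 50806 reads and miR-10a-3p 31, 25 and 27, a log2 ratio of 10.29 (SE 0.27, limma adjusted p = 5.2e-08). Towards 3p they were largest for miR-22, miR-92b, miR-92a, miR-29a, miR-378a and miR-27b. miR-22-3p had 55343, 53158 and 60484 reads and miR-22-5p 11, 37 and 20, a log2 ratio of -11.41 (SE 0.35, limma adjusted p = 7.57e-08). The minor strands of miR-22 and miR-27b are shown, beside the major strands given above, because the minor arm carries a different seed, and so a different set of sites, from the arm that was kept.
miR-22-5p: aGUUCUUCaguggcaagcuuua
miR-27b-5p: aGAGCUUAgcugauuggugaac
In each of these 12 hairpins the dominant arm was the same in all 3 libraries.

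miR-21 was unlike them in the abundance of its minor arm. miR-21-3p had 17756, 17031 and 17626 reads, 1.82% ± 0.191 of each library, and ranked 11 overall. Its dominant arm was still 5p, with 90.9%, 93.8% and 92.1% of the hairpin's reads and a log2 ratio of 3.60 (SE 0.22, limma adjusted p = 2.45e-06). miR-151a kept both arms at high levels. miR-151a-3p had 11120, 9659 and 15827 reads and miR-151a-5p had 6438, 3336 and 7782, a log2 ratio of -1.12 (SE 0.26, limma adjusted p = 0.00456), with 3p higher in 3 of 3 libraries. Without replicate 3 the ratio was -1.16 and its limma adjusted p was 0.0592. Both arms reached a mean of at least 100 reads in 28 hairpins.

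A smaller set had mean arm ratios near 1. Among hairpins with a summed mean of at least 100 units, the 5 nearest a ratio of 1 were miR-424, miR-574, miR-1307, miR-493 and miR-33b. None of them passed. For miR-574 and miR-33b the arms were not level in each library, since the higher arm changed in replicate 2. The 5p arm held 32.8%, 56.8% and 36.2% of miR-574 reads and 26.3%, 68.0% and 25.9% of miR-33b reads. miR-424-5p, a member of the miR-15/16 seed group, had 108, 104 and 189 reads and miR-424-3p 149, 146 and 207. The log2 ratio was -0.36 (95% interval -1.10 to 0.38, limma adjusted p = 0.305), with 3p higher in all 3 libraries. miR-493, from the imprinted 14q32 region, had 61, 72 and 97 reads of 5p and 41, 51 and 62 of 3p. Its log2 ratio was 0.57 (95% interval -0.23 to 1.37, limma adjusted p = 0.154), with 5p higher in all 3 libraries. The 2 strands of both hairpins are shown, since each hairpin supplied 2 seeds. Their mean reads were 1.25-fold (miR-424) and 1.49-fold (miR-493) apart.
miR-424-5p: cAGCAGCAauucauguuuugaa
miR-424-3p: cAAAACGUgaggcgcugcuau
miR-493-5p: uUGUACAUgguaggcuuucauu
miR-493-3p: uGAAGGUCuacugugugccagg

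In 16 hairpins neither arm was higher in all 3 libraries, including ties such as 13 and 13 reads for miR-379 in replicate 2. The most abundant of them were miR-361, miR-574, miR-193a, miR-33b and miR-369, and in each replicate 2 was the library that differed or changed the balance most. miR-361-5p had 176, 72 and 253 reads and miR-361-3p 78, 82 and 76, so 5p was higher in replicates 1 and 3 only. Its log2 ratio was 0.90 (limma adjusted p = 0.0885), and without replicate 2 it was 1.45 (limma adjusted p = 0.00821). miR-193a-5p had 60, 110 and 93 reads and miR-193a-3p 10, 114 and 6. It passed towards 5p with a log2 ratio of 2.10 (limma adjusted p = 0.0234), which was 1.24 (limma adjusted p = 0.208) without replicate 3. miR-33b-3p had 56, 16 and 60 reads and miR-33b-5p 20, 34 and 21, and the ratio passed only without replicate 2, at -1.47 (limma adjusted p = 0.0105). The ratio of miR-574 likewise passed only without it, at -0.92 (limma adjusted p = 0.0270).

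**Figure D3:**
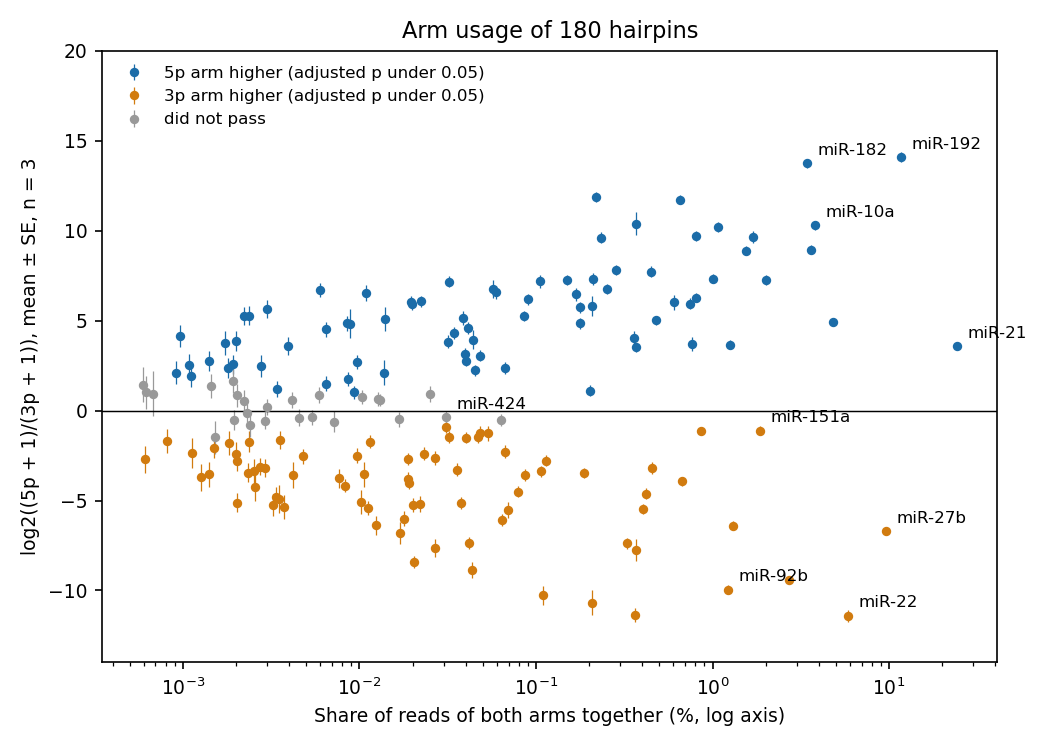
log2 ratio of 5p to 3p deposited normalized values (pseudocount 1 unit, mean ± SE over 3 libraries) for the 180 tested hairpins. The horizontal axis is the share of reads of both arms together (%, log axis). Blue points had 5p higher, orange points 3p higher and grey points did not pass; the abundant hairpins at the right lie far from 0 on both sides, while miR-151a lies at -1.12.

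Dominant and minor arms differed in their first base. Both sequences were matched for 132 of the 155 hairpins that passed. The dominant arm began with U in 78 (59.1%) and the minor arm in 20 (15.2%). U headed only the dominant arm in 67 hairpins, only the minor arm in 9, both in 11 and neither in 45. The difference was present for either direction: U headed 43 of 69 dominant 5p arms (62.3%) and 35 of 63 dominant 3p arms (55.6%). These counts are a description, and the part of ligation in them was not tested.

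Genomic clusters, hairpins on 1 strand within 10 kb of the next, are often cut from a common transcript. On GRCh38 with GENCODE 29, 786 of 787 names were placed on hairpin genes, 719 on a single locus, and 55 clusters held 181 of 647 hairpins. Cluster shares count the names with a single locus, since the reads of the others cannot be divided between loci. On that basis the largest was MIR192 with MIR194-2, at chr11:64891137-64891439 on the minus strand with MIR192 in an exon of the long noncoding RNA MIR194-2HG, and had 11.6% ± 1.41. It was followed by MIR23B, MIR27B and MIR24-1, at chr9:95085208-95086088 on the plus strand, where MIR27B lies in an intron of C9orf3 (9.87% ± 1.39). The cluster of MIR182, MIR96 and MIR183, at chr7:129770383-129775014 on the minus strand and with no gene around MIR182, had 3.65% ± 0.288. MIR99B, MIRLET7E and MIR125A, at chr19:51692612-51693339 on the plus strand with MIRLET7E and MIR125A in an intron of SPACA6, had 2.06% ± 0.669. MIR221 and MIR222, at chrX:45746157-45747124 on the minus strand, had 1.76% ± 0.171. With every name of more than 1 locus counted whole at each locus, the first 2 kept their places, at 11.9% and 9.97%. On this count, MIRLET7A2 with MIR100 (4.38%) and MIRLET7A3 with MIRLET7B (3.80%) lay above the cluster of MIR182. The miR-17-92 cluster (2.88%) lay above that of MIR99B. Other clusters also gained. MIRLET7A1 and MIRLET7F1, neighbours on the plus strand of chromosome 9, would be credited with let-7a-5p (3.61%) and let-7f-5p (1.55%). The order after the first 2 thus depends on this choice. MIR21 itself lies alone, at chr17:59841266-59841337 on the plus strand, in an exon of VMP1. Chromosome 17, which also carries MIR22 and MIR10A, gave 34.9% of all reads through names with a single locus, which together held 86.7%.

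Mature miRNAs of a cluster were found at very unequal levels. miR-192-5p exceeded miR-194-5p, which also comes from a second locus, by between 40.1- and 50.9-fold in the 3 libraries (mean 47.0). miR-27b-3p exceeded its neighbour miR-23b-3p by 53.4-, 48.8- and 37.9-fold (46.7 ± 7.97). miR-182-5p exceeded miR-183-5p by 14.6-, 30.4- and 12.8-fold and miR-96-5p, with 68, 96 and 155 reads, by 405-, 346- and 252-fold. The order of members was the same in all 3 libraries in these clusters. The list of the miR-17-92 cluster, which promotes proliferation, and its paralogs held 3.45% ± 0.146 of reads, with 10 of 12 members found in all 3 libraries. In miR-17-92 itself, miR-20a-5p had 460, 506 and 689 reads, miR-17-5p 406, 319 and 516 and miR-18a-5p 70, 52 and 64. miR-92a-3p, which has a second locus on the X chromosome, exceeded miR-20a-5p by 47.8-fold ± 4.77 and miR-18a-5p by 425-fold ± 66.9. miR-191-5p likewise exceeded miR-425-5p by 42.1-fold ± 8.41.

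The lists of miR-192, miR-194 and miR-215 and of the miR-23, miR-27 and miR-24 miRNAs from both paralogous clusters held 11.9% ± 1.45 and 10.4% ± 1.53. Other clusters were more balanced. miR-222-3p, a repressor of the cell cycle inhibitor CDKN1B, exceeded miR-221-3p, which has the same seed, by 3.68-, 2.94- and 2.99-fold (3.20 ± 0.411). miR-25-3p exceeded miR-93-5p by at most 2.59-fold in any library. In the cluster on chromosome 19, miR-125a-5p exceeded miR-99b-5p by 1.67-, 1.83- and 1.63-fold (1.71 ± 0.106), so these miRNAs kept their ratio. let-7e-5p, encoded between them, did not follow. It had 0.453%, 0.428% and 0.459% of reads, while miR-125a-5p had 1.13%, 0.560% and 1.31%, low in replicate 2. The ratio of miR-125a-5p to let-7e-5p was therefore 2.49, 1.31 and 2.86. The 14q32 list, miRNAs of an imprinted region expressed from the maternal chromosome, had all 32 members listed, 27 found in all 3 libraries, and 0.379%, 0.527% and 0.467% of reads. miR-381-3p with 618, 1591 and 934 reads and miR-409-3p with 641, 875 and 925 led it.

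**Figure D4:**
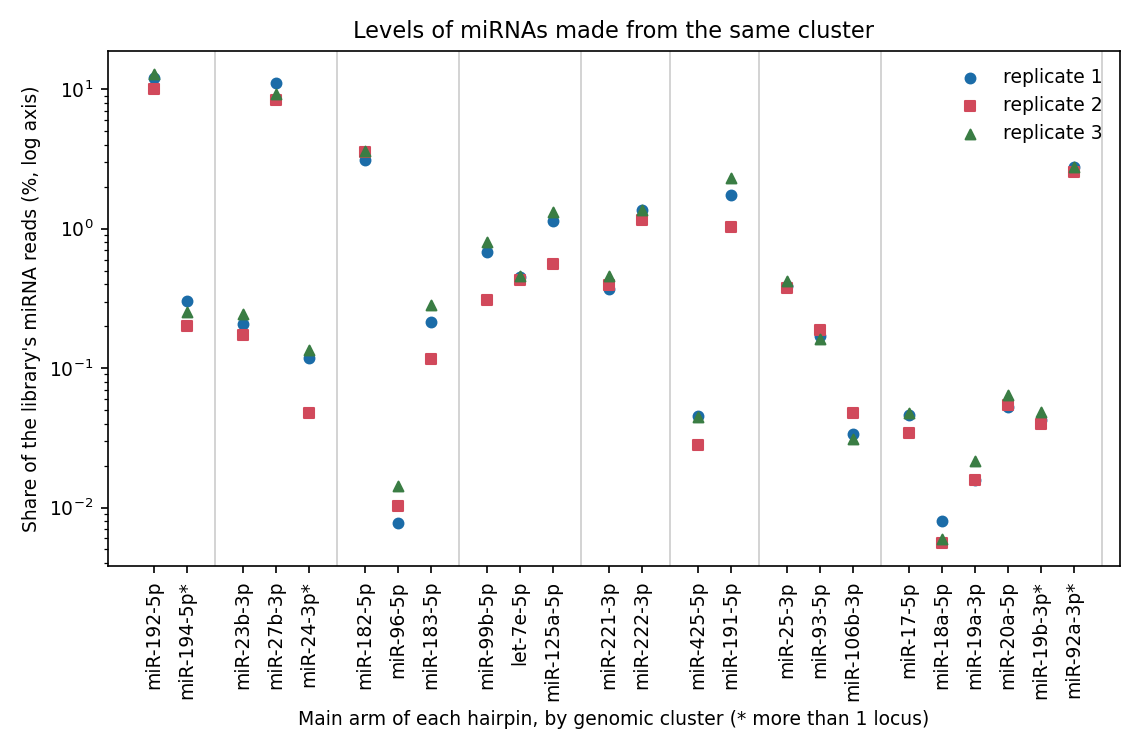
Share of each library's miRNA reads (%, log axis) of the main arm of each hairpin in 8 genomic clusters, with 1 marker per replicate and an asterisk on miRNAs made from more than 1 locus. miR-27b-3p, miR-182-5p and miR-92a-3p lie far above their cluster neighbours, while miR-221-3p and miR-222-3p lie within 3.68-fold of each other.

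Most miRNAs varied between replicates by more than counting error. For the 162 miRNAs with a mean of at least 100 reads, the median coefficient of variation (CV) of the share over the 3 libraries was 20.2%, where counting error alone gives 4.796%. Between replicates 1 and 3 alone the median was 9.79%, against 21.4% for replicates 1 and 2 and 21.02% for 2 and 3. edgeR's common biological CV, fitted to the recovered reads, was 27.9% for all 3 libraries and 14.1% for replicates 1 and 3. Replicate 2 was the highest library for 53 of the 162 and the lowest for 81. The CV was under 10% for 35 miRNAs, over 50% for 8 and below that of counting error for 10.

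The steadiest miRNA was miR-196a-5p, from the HOX clusters, with 171, 180 and 209 reads and a CV of 0.325%, below the 7.32% that counting error gives. It was followed by miR-455-3p, let-7e-5p, miR-130a-3p and miR-660-5p, with CVs from 2.70% to 4.16%. Abundant miRNAs among the steadier ones were miR-92a-3p (CV 4.51%), let-7f-5p (4.56%) and miR-22-3p (6.28%).

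At the other end, miR-138-5p had 1666, 6271 and 1779 reads and a CV of 83.6%. Its mean share of 0.342% fell to 0.177% without replicate 2. miR-4792 had 1256, 1680 and 5295 reads (CV 70.5%), with replicate 3 the high library, and its mean share was 0.271% with all libraries and 0.161% without replicate 3. miR-31-3p had 72, 247 and 99 reads and miR-149-5p 144, 341 and 134, both high in replicate 2. Without that library the mean share of miR-31-3p was 0.00867% in place of 0.0146%, and that of miR-149-5p was 0.0144% in place of 0.0218%. miR-100-5p had 6718, 2529 and 12218 reads (CV 59.8%), miR-146b-5p had 149, 36 and 221 (63.6%) and miR-941 had 849, 292 and 1289 (55.5%). These 3 were low in replicate 2. miR-7641 had 44, 186 and 189 reads (56.7%), low in replicate 1.

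**Figure D5:**
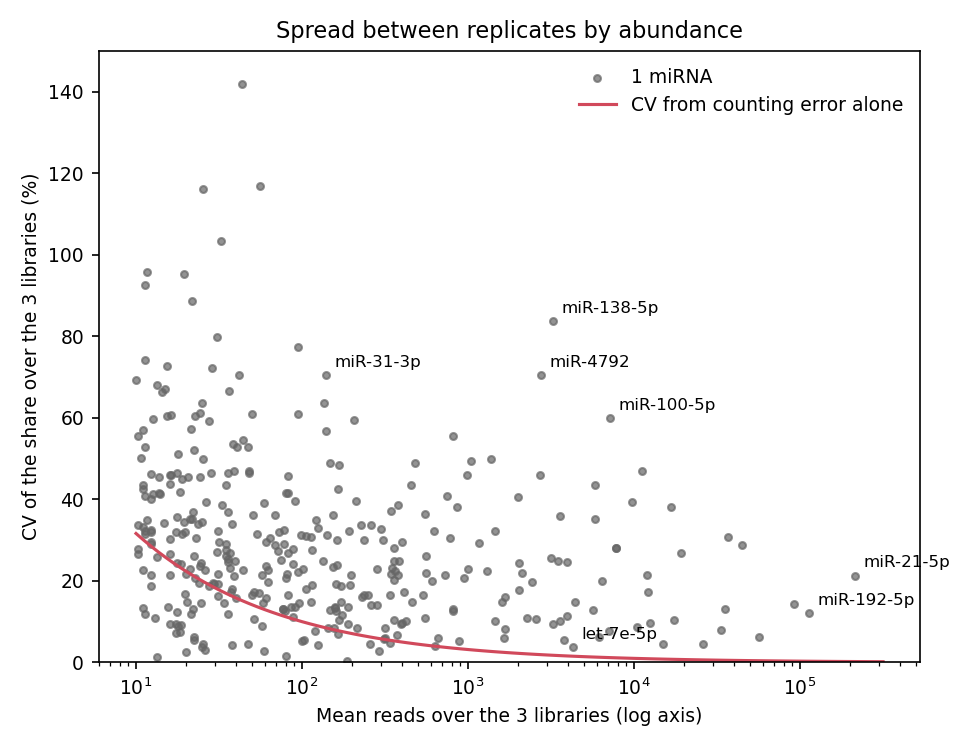
CV of the share over the 3 libraries (%) against mean reads (log axis) for 362 miRNAs with a mean of at least 10 reads, 1 point each, with the CV that counting error alone gives as a line. Most points with over 1000 reads lie well above the line, and miR-138-5p and miR-4792 reach 83.6% and 70.5%.

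Replicate 2 was set against the mean of the other libraries list by list. Over all 162 miRNAs with at least 100 reads on average, 50% were lowest in replicate 2, 32.7% were highest there, and the median ratio was 0.933. The lists below were picked for their values in this library, and nothing particular to them is read from the counts. The list of miR-125, miR-99 and miR-100 holds miRNAs that share genomic clusters, where miR-99 and miR-100 have 1 seed and miR-125 another. All 4 of its members with that many reads were lowest in replicate 2, at a median ratio of 0.376. The list of 5 held 2.74%, 1.20% and 3.45% of reads. All 5 miRNAs of the miR-23/27/24 clusters were also lowest there (median 0.679). All 4 miR-181 miRNAs, known for roles in lymphocyte and vascular biology, were highest there (median 1.83). miR-181a-5p had 7243, 16695 and 9409 reads and miR-181b-5p 1833, 4057 and 2259. Of 7 miR-30 miRNAs 6 were highest there (median 1.22). Other lists were mixed: of the 9 let-7 miRNAs 1 was highest and 4 were lowest in replicate 2 (median 0.945), and of 6 miRNAs from 14q32 3 were highest and 1 was lowest (median 1.13). Across 140 miRNAs the ratio of replicate 2 to the others was weakly related to GC content (Pearson r = 0.133, one library setting every point). By first base, the median log2 ratio was -0.25 for U (26 of 78 higher in replicate 2) and -0.17 for C (7 of 22). It was 0.00188 for G (3 of 6) and 0.11 for A (20 of 34). A cause was not tested.

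Lists of miRNAs typical of cell types were set against the epithelial label. The epithelial list holds the miR-200 family, which represses ZEB1 and ZEB2 and so maintains E-cadherin, with miR-203a and miR-205. Its 6 listed members were found in all 3 libraries but summed to only 0.0331%, 0.0200% and 0.0383% of reads. miR-200b-3p gave most of them, with 243, 150 and 320 reads, and miR-200c-3p, often the main member in epithelia, had 1, 5 and 8. The label is thus not reflected in abundant miR-200 miRNAs.

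Markers of other cell types were mostly scarce. The mesenchymal list held 0.566%, 0.594% and 0.805% of reads, 99.7% of them miR-10b-5p, while miR-145-5p and miR-214-3p were at 0 in every library and miR-143-3p had 12, 27 and 26 reads. The blood list held between 0.338% and 0.408%, 99.6% of it miR-486-5p, with miR-142-5p at 23, 3 and 9 reads and miR-150-5p at 2, 0 and 0. The endothelial pair held between 0.0420% and 0.0844%, where miR-126-5p had 530, 316 and 799 reads and miR-126-3p 114, 76 and 112. The list for multiciliated and neuroendocrine cells held between 0.0364% and 0.0403%, led by miR-34c-5p and miR-375. The neuron list held between 0.0625% and 0.111%, led by miR-128-3p and miR-9-5p. Both listed muscle miRNAs, miR-1-3p and miR-133a-3p, were at 0 throughout.

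Further groups filled in the baseline. Of 10 p53-responsive miRNAs 9 were found in all 3 libraries, with 12.4%, 10.4% and 13.1% of reads, 97.1% of them miR-192-5p. miR-34a-5p, the best known of them, had only 404, 288 and 389 reads. The 6 miRNAs reported as oncogenic in lung tumours held 24.3% ± 5.28. Of them miR-21-5p and miR-31-5p were abundant, and miR-210-3p had 85, 126 and 63 reads. miR-155-5p, mainly a miRNA of immune cells, had 1, 2 and 0 reads. The miR-10 and miR-196 list summed to 4.48% ± 1.25 of reads with miR-10a-5p and miR-10b-5p ahead, and miR-16-5p made up 92.0% of the 0.870% ± 0.237 held by the miR-15/16 list. The miR-26 and miR-101 list had 1.11% ± 0.222, led by miR-26a-5p and miR-26b-5p, the miR-29 list 0.394% ± 0.135, led by miR-29a-3p and miR-29b-3p, and the miR-148 and miR-152 list 0.218% ± 0.0318, led by miR-148b-3p and miR-148a-3p. miRNAs made without Drosha, such as miR-320a and miR-484, had 0.204% ± 0.0126. Names whose sequence overlaps tRNA, rRNA or other RNA classes, such as miR-4792 and miR-1260b, held 0.278%, 0.423% and 0.720%, highest in replicate 3, and 57.2% of that was miR-4792.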

How the data were processed

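The 3 libraries of empty vector cells came from total RNA (mirVana kit) and a TruSeq small RNA kit, per the labels' protocols. The authors deposited 1 normalized signal value for each mature miRNA and library, in a table named for TMM scaling (trimmed mean of M values). Per the submitters' processing notes, bcl2fastq 2.18.0.12 and build GRCh38 were used. For the trimmer, aligner, counter and miRNA annotation: not given in the sources used here. Every value was a whole multiple of 1 step per library (1.89, 1.90 and 1.64 units, tolerance 1e-06), which gave the read count for 100% of values.

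From these reads, shares, ranks, detection (at least 1 read) and CVs were computed with Python 3.11.15. Groups followed the sample titles. The design had left the unit open, and its tests were kept. Arms were paired by hairpin name, copies summed, and log2((5p + 1)/(3p + 1)) of the deposited values was tested against 0 with limma 3.58.1 in R 4.3.3 (trend, two-sided, Benjamini-Hochberg over 180 hairpins with a summed mean of at least 10), tested on simulated data. edgeR 4.0.16 on the reads was an alternative. Other alternatives changed pseudocount, filter, denominator, averaging and arm pairing, and left out each library. Hairpin loci came from GENCODE 29.

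The miRNAs and the 28 lists were chosen with earlier results of these data known. Named were the 20 most abundant miRNAs, the 2 most abundant of each list, the 8 highest and 5 lowest CVs, the 6 largest arm ratios each way, the 5 nearest 1, the 5 most abundant hairpins without 1 constant arm, the 5 largest seed families and clusters, and the 5 most abundant miRNAs at 0 in some library. Others named in the text were chosen after their values were seen. Of the 3 liver and 14 pluripotency and placenta names, none was analysed here. The SMARCA4 libraries were not used.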

Additional observations from a re-analysis of the deposited data

How the results depend on the processing

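Requiring 10 reads in each library left 309 miRNAs detected in all 3, against 523 with 1 read. The median CV of 20.2% ranged from 9.79% to 21.4% when 1 library was left out, and the lowest value, without replicate 2, is the only one that moved it by over 1.5 times. Leaving out 1 library gave between 138 and 158 hairpins with a dominant arm, against 155, and no call turned direction under any alternative. The arm ratio of miR-369, which did not pass (-0.39), ranged from -0.63 to 0.0400 on the log2 scale when 1 library was left out, the latter without replicate 2 (limma adjusted p = 0.917). The cause was not tested. miR-361 also passed with a pseudocount of 5 (0.89, limma adjusted p = 0.0439) and with edgeR (0.93, adjusted p = 0.0262).

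Other denominators and averaging moved the share by less than 1 SD between libraries in 48 of 48 alternatives for 25 lists and 213 of 252 for 64 named miRNAs. Of the other 39, 38 took miR-21-5p out of the total, which was not run for lists. The lists had only pooled reads and a total without names that overlap other RNA classes. Pooling reweights libraries of similar size, and those names held 0.473% of reads. Neither change could move a list by 1 SD, so that count is no check of the lists. Leaving out 1 of 3 libraries cannot move a mean by 1 SD, so it was judged by size. No list and 5 named miRNAs fell by over 1.5 times. These were the 4 given in the report and miR-142-5p (0.00125%, and 0.000577% without replicate 1). A rise by over 1.5 times is not possible in this way, so the count misses miRNAs that are low in 1 library. Examples are miR-146b-5p (0.0137%, and 0.0187% without replicate 2) and miR-100-5p (0.721%, and 0.947% without replicate 2). Of 306 alternatives for 31 hairpins, 298 kept direction and side of the threshold. No paired analysis was possible because only 1 group was analysed, so replicate numbers pair nothing, and the arms were already paired within a library. Depth limits the scarce miRNAs most, since 625 had a mean under 100 reads.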
